A study of Arabidopsis thaliana with 9 samples.

Results

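The 51 Arabidopsis thaliana genes described here encode proteins that sense, carry or respond to calcium in the cell: 23 calcium-dependent protein kinases (CPK), 16 cyclic nucleotide-gated channels (CNGC), 10 calmodulin-like proteins (CML) and the 2 calcium pumps ACA12 and ACA13. They were chosen by locus identifier from the 33602 loci of the count files, with the differences between the genotypes already known, so their values below, and the calls from the fit across all genes, are given as a description, with no p-value for a member. The list has no threshold. Whole rosettes of 3 genotypes were compared by mRNA sequencing with 3 libraries each: the mutant pdx3-3 (line SALK_054167C), the mutant pdx3-4 (line GK-260E03) and the wild type. All plants had the Col-0 background, were 21 days old and grew on soil with 16 h of light and 8 h of dark. Both mutants come from collections of T-DNA insertion lines and each stands for 1 line. PDX3 encodes the oxidase that makes pyridoxal phosphate, the active form of vitamin B6, from other forms of the vitamin.

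A rise of calcium in the cytosol is an early step of many plant responses, among them immunity, wounding, touch and the closing of stomata. Channels such as the CNGCs let calcium in, and pumps of the ACA family take it out again, several of them under the control of calmodulin. In between stand the sensors. Calmodulin-like proteins bind calcium with EF-hand loops and pass the signal to partners, while CPKs carry the EF hands and the kinase in a single chain. In leaves, several CPKs phosphorylate the oxidase RBOHD and other immune components, and several act on the anion channels of guard cells.

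PDX3 itself (AT5G49970, chromosome 5, 20329103 to 20333172 in TAIR10.1) was at 9.24, 8.22 and 10.8 CPM (counts scaled to a library total of 1e+06) in pdx3-3, at 43.4, 51.5 and 42.7 CPM in pdx3-4 and at 90.1, 88.9 and 78.7 CPM in wild type. Library totals ran from 15912737 to 21938941 counts, and the shallowest was pdx3-3 library 1. Chloroplast-encoded genes took 0.536%, 0.174% and 0.023% of the counts in pdx3-3 libraries 1, 2 and 3, against 0.0162% to 0.0196% in pdx3-4 and 0.0207% to 0.0532% in wild type. The 3 leaf markers RBCS1A, LHCB2.1 and CA1 summed to 24000 to 27800 CPM in pdx3-3, 24100 to 26200 CPM in pdx3-4 and 31600 to 33100 CPM in wild type. The 4 root markers summed to at most 0.182 CPM in any library, with COBL9 and EXPA7 at or near 0, and the 3 flower and pollen markers to at most 1.73 CPM. The 2 guard cell markers MYB60 and FAMA summed to 13.0 to 16.7 CPM in pdx3-3, 14.1 to 15.7 CPM in pdx3-4 and 27.8 to 28.7 CPM in wild type. In whole rosettes, fewer cells of a type and less RNA per cell cannot be told apart.

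The stretch just before the annotated start of 5 members is shown because these genes were among those of their subfamily that differed most in level and their windows overlap no exon of another gene, or, for CML24, because it holds the CGCGT letters that calmodulin-binding CAMTA factors are known to bind. Each is 300 bases read 5′ to 3′ on the gene's own strand from RefSeq TAIR10.1. Capitals mark the motifs searched on either strand. These were the W-box, which WRKY factors are known to bind, as TTGACC or TTGACT, the element CGCGT, the element of TGA factors with the letters TGACG, and the G-box with the letters CACGTG. The windows are chr5:26459655-26459954 (minus strand) for CPK28, chr4:437606-437905 (minus) for CNGC13, chr5:16943821-16944120 (minus) for CML37, chr5:14999620-14999919 (minus) for CML24 and chr3:8119491-8119790 (minus) for ACA13.
CPK28: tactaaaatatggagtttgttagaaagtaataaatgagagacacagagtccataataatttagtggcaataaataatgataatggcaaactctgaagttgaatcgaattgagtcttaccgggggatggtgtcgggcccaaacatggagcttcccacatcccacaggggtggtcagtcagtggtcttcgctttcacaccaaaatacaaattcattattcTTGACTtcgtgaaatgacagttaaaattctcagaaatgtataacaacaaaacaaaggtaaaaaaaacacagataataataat
CNGC13: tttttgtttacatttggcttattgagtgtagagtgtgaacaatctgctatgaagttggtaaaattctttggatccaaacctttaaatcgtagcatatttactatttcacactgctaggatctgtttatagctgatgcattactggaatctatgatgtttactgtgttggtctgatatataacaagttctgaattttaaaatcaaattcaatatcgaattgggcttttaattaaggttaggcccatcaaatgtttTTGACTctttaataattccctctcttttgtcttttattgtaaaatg
CML37: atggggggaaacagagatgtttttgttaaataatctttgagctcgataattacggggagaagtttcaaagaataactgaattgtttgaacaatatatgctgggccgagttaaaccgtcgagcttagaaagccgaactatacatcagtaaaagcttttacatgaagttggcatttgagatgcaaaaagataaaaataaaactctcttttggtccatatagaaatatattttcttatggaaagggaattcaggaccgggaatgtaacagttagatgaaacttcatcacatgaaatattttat
CML24: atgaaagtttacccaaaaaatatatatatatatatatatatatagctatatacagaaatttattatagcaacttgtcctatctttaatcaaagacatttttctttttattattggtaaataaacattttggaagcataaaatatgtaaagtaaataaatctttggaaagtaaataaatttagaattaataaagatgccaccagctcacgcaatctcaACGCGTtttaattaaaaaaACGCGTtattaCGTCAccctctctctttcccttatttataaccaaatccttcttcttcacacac
ACA13: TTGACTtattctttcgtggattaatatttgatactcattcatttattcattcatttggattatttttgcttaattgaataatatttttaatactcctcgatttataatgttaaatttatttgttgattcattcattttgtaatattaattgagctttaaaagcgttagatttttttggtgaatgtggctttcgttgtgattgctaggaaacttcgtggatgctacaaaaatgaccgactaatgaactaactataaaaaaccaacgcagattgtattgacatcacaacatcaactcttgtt

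The first letter of TTGACT lay 82 bases before the start of CPK28, 46 before that of CNGC13 and 300 before that of ACA13, while the CML37 window held none of the motifs. CNGC14 differed more than CNGC13 (mean absolute log2 fold change over both mutants 2.47 against 2.21). Its window, not shown, also overlaps no exon of another gene and held none of the motifs. In CML24 the letters ACGCGT stood in 2 places, each holding CGCGT on both strands, with TGACG on the other strand 53 bases before the start. Over the 51 members, 21 windows (41.2%) held TTGACC or TTGACT, against 31.7% of the 18216 tested protein-coding genes. CGCGT was in 5 windows (9.8%), against 8.55%, and TGACG in 7 (13.7%), against 22.1%. CACGTG was in 0 windows, against 8.06%. By subfamily, TTGACC or TTGACT stood in 10 of 23 CPK, 7 of 16 CNGC, 2 of 10 CML and 2 of 2 ACA windows. These shares describe letters only.

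Taken as a sum, the 51 genes had 2931, 3930 and 4139 CPM in pdx3-3, 3298, 3308 and 3210 CPM in pdx3-4, and 1349, 1375 and 1252 CPM in wild type. Every mutant library lay above every wild type library. The mean was 2.77 times that of wild type in pdx3-3 and 2.47 times in pdx3-4, and the comparisons of each mutant share the same wild type libraries. The calmodulin-like genes made up most of that gap: their sum was 1364, 1896 and 2127 CPM in pdx3-3, 1566, 1575 and 1503 CPM in pdx3-4, and 305, 341 and 285 CPM in wild type. The kinases summed to 1033, 1410 and 1395 CPM in pdx3-3, 1132, 1159 and 1126 CPM in pdx3-4, and 560, 570 and 537 CPM in wild type. The channels had the smallest ratio to wild type, 1.22 in pdx3-3 and 1.23 in pdx3-4, at 507, 576 and 581 CPM in pdx3-3, 570, 554 and 559 CPM in pdx3-4, and 479, 461 and 428 CPM in wild type. The pumps were the rarest, at 27.3, 47.7 and 35 CPM in pdx3-3, 29.5, 20.2 and 22.8 CPM in pdx3-4, and 4.53, 3.42 and 1.28 CPM in wild type.

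**Figure D1:**
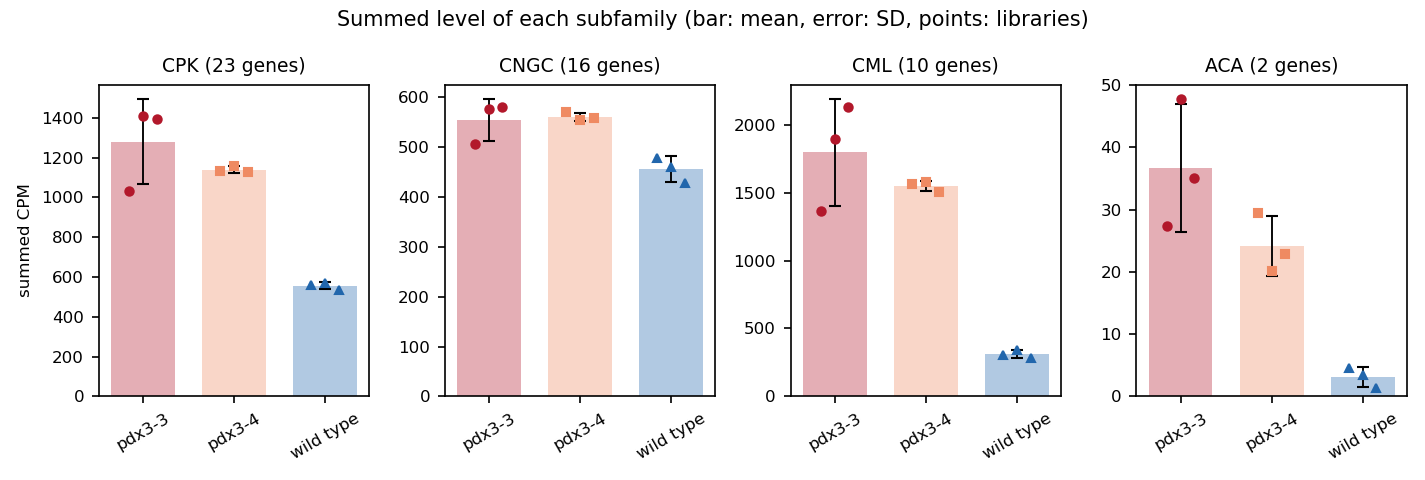
Summed level in CPM (vertical axes, each from 0) of the members of each subfamily in pdx3-3, pdx3-4 and wild type. Bars are means, error bars SD and points the 3 libraries of a genotype; in all 4 panels the mutant libraries lie above the wild type ones, and pdx3-3 library 1, drawn as the left point, is the lowest of its genotype.

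Of the 51 members, 47 had enough counts to be tested, and CPK16, CPK17, CPK18 and CML39 did not. A gene was called when its adjusted p from edgeR's quasi-likelihood test, by Benjamini-Hochberg over all 18783 tested genes, was under 0.05. In pdx3-3 against wild type 33 members were called higher and 2 lower, where 36.4% of all tested genes were called, 19% higher and 17.5% lower. In pdx3-4 against wild type 34 were called higher and 2 lower, where 39.2% of all tested genes were called, 20.9% higher and 18.4% lower. The members were chosen with these differences in view, so nothing is read from the counts. The median log2 fold change of the 47 members was 1.03 in pdx3-3 and 0.67 in pdx3-4, where that of all tested genes was -0.03 in pdx3-3 and -0.01 in pdx3-4. Called higher in both mutants were 30 members, and 1 member, CNGC2, was called lower in both. Of the remaining members that were tested, 7 were called in neither mutant. No joint share over all tested genes was computed for these counts, and both comparisons share the wild type libraries.

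**Figure D2:**
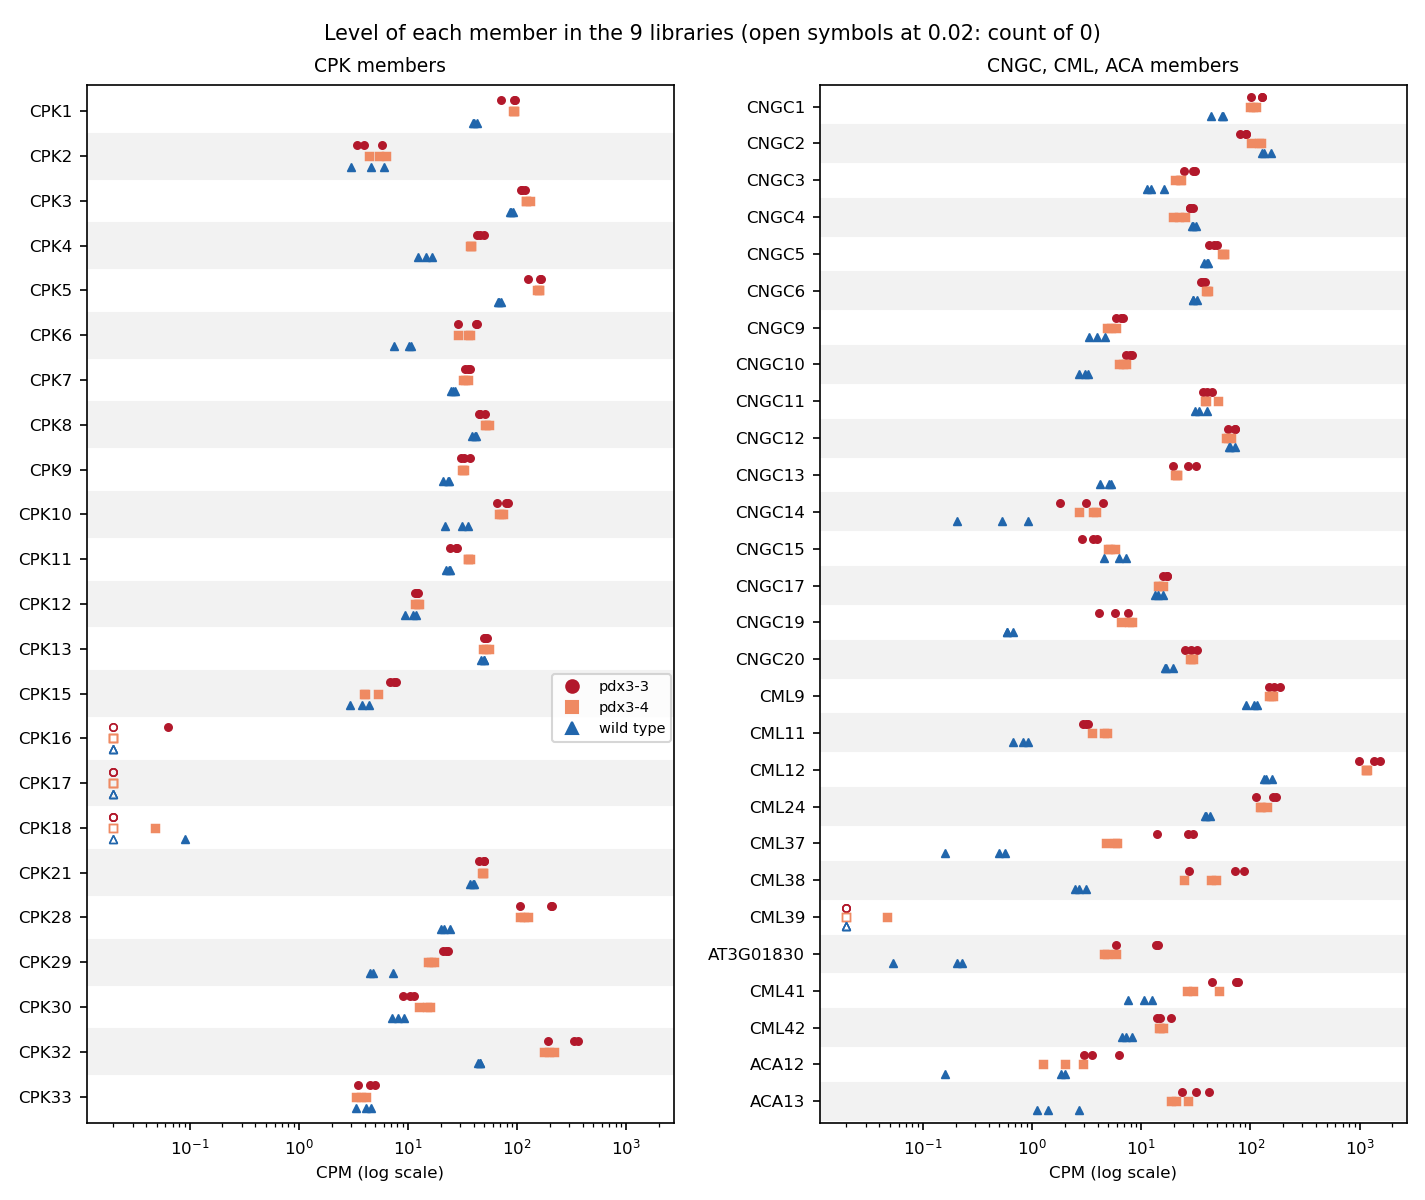
Level of every member in each of the 9 libraries, in CPM on a log axis, for the kinases (left) and for the channels, calmodulin-like genes and pumps (right); open symbols at 0.02 stand for a count of 0. CML12 reaches 994 to 1550 CPM in pdx3-3, and CPK16, CPK17, CPK18 and CML39 lie at or near 0 in every genotype.

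Among the kinases, 13 of the 20 tested members were called higher in pdx3-3 and 15 in pdx3-4, and none was called lower in either. Of all tested genes, 19% were called higher and 17.5% lower in pdx3-3, and 20.9% higher and 18.4% lower in pdx3-4. CPK28, which limits immune signalling by promoting the turnover of the kinase BIK1, differed most (AT5G66210, chromosome 5, 26456142 to 26459654). It had 107, 207 and 203 CPM in pdx3-3, 106, 126 and 115 CPM in pdx3-4, and 21.6, 24.2 and 20 CPM in wild type. Its log2 fold change was 2.91 ± 0.22 (SE) in pdx3-3 and 2.34 ± 0.22 in pdx3-4. Both mutants lay clear of wild type, and pdx3-3 library 1 was as low as the pdx3-4 libraries.

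CPK32, which takes part in nitrate signalling (AT3G57530, chromosome 3, 21296457 to 21299704), showed the same order with 191, 361 and 330 CPM in pdx3-3, 194, 219 and 177 CPM in pdx3-4, and 43.7, 45.9 and 45.6 CPM in wild type. The log2 fold change was 2.65 ± 0.20 in pdx3-3 and 2.07 ± 0.19 in pdx3-4. It supplied 23% of all member kinase counts in pdx3-3 and 17.3% in pdx3-4, whereas in wild type CPK3 supplied the largest share, 16%. Of the other kinases of nitrate signalling, CPK10 had 65.3, 78.7 and 82.0 CPM in pdx3-3, 74.3, 68.3 and 71.4 CPM in pdx3-4, and 35.2, 31.4 and 21.7 CPM in wild type. CPK30 had 10.5, 8.97 and 11.3 CPM in pdx3-3, 15, 12.6 and 15.8 CPM in pdx3-4, and 9.21, 8.16 and 7.17 CPM in wild type. Thus CPK10 was called higher in both mutants (log2 1.3 ± 0.16 in pdx3-3 and 1.22 ± 0.16 in pdx3-4), and CPK30 in pdx3-4 (log2 0.26 ± 0.14 in pdx3-3 and 0.77 ± 0.13 in pdx3-4), and it was called lower in pdx3-3 than in pdx3-4 in 7 of the other fits (log2 -0.60 to -0.49), though not in the one reported (-0.50 ± 0.13). Of the 50-base windows of the CPK10 transcript, 50.4% also lie in exons of other loci on the opposite strand.

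The immune kinases CPK5 and CPK6 and the pair CPK4 and CPK11 can be set side by side. CPK5, which phosphorylates RBOHD in immune responses, had 127, 164 and 163 CPM in pdx3-3, 153, 160 and 157 CPM in pdx3-4, and 67.5, 71.8 and 67.1 CPM in wild type. CPK6, a kinase of immunity and of guard cell anion channels, had 28.8, 43.2 and 42.1 CPM in pdx3-3, 36.7, 28.5 and 35.2 CPM in pdx3-4, and 10.6, 10.3 and 7.44 CPM in wild type. The log2 fold change of CPK5 was 1.08 ± 0.10 in pdx3-3 and 1.13 ± 0.10 in pdx3-4, and that of CPK6 was 1.95 ± 0.19 in pdx3-3 and 1.77 ± 0.19 in pdx3-4. Neither gene overlapped between mutant and wild type libraries. CPK4 and CPK11 are close paralogs of abscisic acid and immune signalling, and they did not behave alike. CPK4 had 43.0, 45.7 and 49.7 CPM in pdx3-3, 37.7, 37.6 and 37.1 CPM in pdx3-4, and 12.4, 16.7 and 14.6 CPM in wild type. CPK11 had 24.5, 28.2 and 27.7 CPM in pdx3-3, 37.2, 35.8 and 35.8 CPM in pdx3-4, and 23.6, 24.3 and 22.3 CPM in wild type. CPK4 was thus called higher in both mutants (log2 1.61 ± 0.11 in pdx3-3 and 1.31 ± 0.11 in pdx3-4) and CPK11 in pdx3-4 (log2 0.14 ± 0.08 in pdx3-3 and 0.58 ± 0.08 in pdx3-4), with fewer than 1% of their 50-base windows in common.

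CPK1, an immune kinase, had 71.1, 96.5 and 93.4 CPM in pdx3-3, 92.3, 92.8 and 93.3 CPM in pdx3-4, and 43.0, 40.3 and 39.2 CPM in wild type. Nearly its whole transcript, 99.2% of its 50-base windows, is also annotated as the locus AT5G04880 on the same strand, which collected 959 counts over all 9 libraries, so part of its reads may have been assigned elsewhere or dropped. Its paralog CPK2 was called in neither mutant, with 3.96, 5.75 and 3.43 CPM in pdx3-3, 6.29, 5.48 and 4.43 CPM in pdx3-4, and 6.07, 4.56 and 3.00 CPM in wild type. CPK29, which acts on the trafficking of auxin carriers, had 21.0, 23.5 and 22.3 CPM in pdx3-3, 15.2, 16.2 and 17.3 CPM in pdx3-4, and 4.74, 4.51 and 7.28 CPM in wild type. The 3 groups of CPK29 did not overlap, with pdx3-3 at the top (log2 1.97 ± 0.14 in pdx3-3 and 1.52 ± 0.14 in pdx3-4).

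The other kinases differed by less. CPK3, a kinase of guard cell and salt responses, had 109, 111 and 117 CPM in pdx3-3, 121, 120 and 130 CPM in pdx3-4, and 88.6, 91.8 and 85.6 CPM in wild type. CPK7, CPK9 and CPK21 were also called higher in both mutants, with log2 fold changes from 0.25 (CPK21 in pdx3-3) to 0.51 (CPK9 in pdx3-3). CPK8 was called higher in pdx3-4 and not in pdx3-3 (log2 0.16 ± 0.08 in pdx3-3 and 0.31 ± 0.08 in pdx3-4), and CPK15 in pdx3-3 and not in pdx3-4 (log2 0.93 ± 0.17 in pdx3-3 and 0.20 ± 0.17 in pdx3-4). CPK12, CPK13 and CPK33 were called in neither, like CPK2. CPK13, a kinase of guard cells, had 52.7, 50.1 and 50.6 CPM in pdx3-3, 54.8, 51.6 and 49.1 CPM in pdx3-4, and 46.5, 49.3 and 49.8 CPM in wild type. The guard cell marker sum above was lower in both mutants than in wild type, and its part in the levels of CPK3, CPK6, CPK13, CPK21 and CPK33 was not tested. The pollen kinase CPK17 had a count of 0 in every library, CPK16 had 1 count in pdx3-3 library 1 and 0 elsewhere, and CPK18 had 1 count in pdx3-4 library 3 and 2 in wild type library 2. A count of 0 allows up to 3 counts, which is 0.137 to 0.189 CPM at the depth of these libraries.

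Of the 16 channels, 9 were called higher and 2 lower in pdx3-3, and likewise 9 higher and 2 lower in pdx3-4. The shares over all tested genes were 19% higher and 17.5% lower in pdx3-3, and 20.9% higher and 18.4% lower in pdx3-4. CNGC19, a channel that responds to herbivory (AT3G17690, chromosome 3, 6045002 to 6048529), had 4.15, 5.70 and 7.53 CPM in pdx3-3, 6.52, 7.69 and 8.29 CPM in pdx3-4, and 0.669, 0.593 and 0.589 CPM in wild type. The wild type values rest on 13, 13 and 11 counts. Its log2 fold change was 3.17 ± 0.26 in pdx3-3 and 3.54 ± 0.25 in pdx3-4. The neighbour CNGC20, which lies 284 bases downstream on the same strand and shares almost no sequence windows with it, had 25.3, 28.8 and 32.7 CPM in pdx3-3, 28.9, 29.7 and 28.3 CPM in pdx3-4, and 16.7, 19.7 and 16.8 CPM in wild type. Both genes were thus higher in both mutants, CNGC19 by far more (CNGC20 log2 0.65 ± 0.10 in pdx3-3 and 0.65 ± 0.10 in pdx3-4).

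CNGC13 (AT4G01010, chromosome 4, 434217 to 437605) had 19.6, 27.1 and 31.7 CPM in pdx3-3, 21.3, 21.1 and 20.4 CPM in pdx3-4, and 5.30, 5.11 and 4.17 CPM in wild type. CNGC14, known from root gravitropism and root hairs, had 1.82, 4.46 and 3.1 CPM in pdx3-3, 3.85, 3.65 and 2.7 CPM in pdx3-4, and 0.206, 0.912 and 0.535 CPM in wild type. The mutants lay above wild type in both genes, with log2 fold changes of 2.37 ± 0.17 in pdx3-3 and 2.05 ± 0.17 in pdx3-4 for CNGC13. For CNGC14 they were 2.42 ± 0.43 in pdx3-3 and 2.53 ± 0.43 in pdx3-4, on 4 to 20 counts in the wild type libraries, and without wild type library 2 they were 3.05 in pdx3-3 and 3.15 in pdx3-4. Root markers were at or near 0 in every library beside it. CNGC1 and CNGC10 followed, with log2 1.14 ± 0.12 in pdx3-3 and 0.98 ± 0.12 in pdx3-4 for CNGC1 and 1.32 ± 0.12 in pdx3-3 and 1.12 ± 0.12 in pdx3-4 for CNGC10. CNGC1 had 101, 127 and 127 CPM in pdx3-3, 112, 99.6 and 105 CPM in pdx3-4, and 54.7, 55.8 and 43.5 CPM in wild type. CNGC10 had 7.29, 7.88 and 8.25 CPM in pdx3-3, 6.29, 7.21 and 6.84 CPM in pdx3-4, and 3.24, 3.05 and 2.68 CPM in wild type.

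CNGC2 and CNGC4 form a channel that lets calcium in during immune responses, and plants without either are known for defence without cell death. CNGC2 (AT5G15410, chromosome 5, 5003226 to 5006882, named DND1 in the reference) had 91.1, 90.8 and 81.1 CPM in pdx3-3, 121, 101 and 125 CPM in pdx3-4, and 154, 132 and 128 CPM in wild type. All mutant libraries were below all wild type libraries, and pdx3-3 was below pdx3-4 (log2 -0.71 ± 0.11 in pdx3-3 and -0.31 ± 0.11 in pdx3-4). The pdx3-4 call was lost in 9 of the other fits described at the end, among them those without pdx3-3 library 2, pdx3-4 library 1 or 2, or wild type library 1 or 2 (log2 -0.33 to -0.21). Between the mutants CNGC2 was not called in the reported fit (log2 -0.41 ± 0.11). It was called lower in pdx3-3 than in pdx3-4 in 7 of the other fits (log2 -0.50 to -0.39). CNGC4 had 28.3, 29.9 and 27.9 CPM in pdx3-3, 25.1, 22.2 and 19.4 CPM in pdx3-4, and 29.4, 31.5 and 29.7 CPM in wild type, and was called lower in pdx3-4 (log2 -0.13 ± 0.09 in pdx3-3 and -0.50 ± 0.09 in pdx3-4). CNGC2 took 15.8% of the channel counts in pdx3-3 and 20.6% in pdx3-4, against 30.3% in wild type. CNGC15, a channel of the nuclear envelope, had 3.64, 3.91 and 2.86 CPM in pdx3-3, 5.82, 5 and 5.16 CPM in pdx3-4, and 7.26, 6.24 and 4.55 CPM in wild type, and was called lower in pdx3-3 (log2 -0.86 ± 0.19).

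CNGC3, CNGC11 and CNGC12 lie in a row on chromosome 2, with 195 and 598 bases between them. CNGC3 had 24.9, 29.6 and 31.3 CPM in pdx3-3, 23.3, 22.6 and 20.2 CPM in pdx3-4, and 12.4, 16.2 and 11.2 CPM in wild type, and was called higher in both mutants (log2 1.05 ± 0.14 in pdx3-3 and 0.67 ± 0.14 in pdx3-4). CNGC11 had 37.1, 40.4 and 44.1 CPM in pdx3-3, 38.8, 50.3 and 38.9 CPM in pdx3-4, and 31.2, 39.7 and 33.9 CPM in wild type. CNGC12 had 63.0, 72.5 and 72.4 CPM in pdx3-3, 60.3, 66.7 and 62.3 CPM in pdx3-4, and 72.0, 63.3 and 65.1 CPM in wild type. Only CNGC3 of the row was called, in these data where 9.54% of the 50-base windows of CNGC3, 36.3% of those of CNGC11 and 23.2% of those of CNGC12 recur in other loci, mostly in each other, so reads can be split among them. Of the channels known from guard cells and root hairs, CNGC5 was called higher in pdx3-4 (log2 0.16 ± 0.07 in pdx3-3 and 0.46 ± 0.07 in pdx3-4), CNGC6 in both (0.22 ± 0.07 in pdx3-3 and 0.33 ± 0.07 in pdx3-4) and CNGC9 in pdx3-3 (0.64 ± 0.16 in pdx3-3 and 0.38 ± 0.16 in pdx3-4). The pdx3-3 call of CNGC6 was lost in 6 of the other fits, among them those without pdx3-3 library 2 or 3 or wild type library 2 or 3 (log2 0.18 to 0.22). CNGC17, a partner of a peptide receptor in growth, was called in neither mutant.

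All 9 calmodulin-like genes that were tested were called higher in both mutants. Of all tested genes, 19% were called higher in pdx3-3 and 20.9% in pdx3-4. AT3G01830 (4, 5 and 1 counts in wild type) and CML37 (11, 11 and 3) had enough counts to be tested only through their mutant libraries. For them being tested already went with a higher level in the mutants, so nothing is read from the count. CML12, the touch gene TCH3 (AT2G41100, chromosome 2, 17137037 to 17139700), was the most abundant member in the mutants. It had 994, 1352 and 1550 CPM in pdx3-3, 1142, 1179 and 1152 CPM in pdx3-4, and 134, 159 and 138 CPM in wild type. That is 72.3% of the calmodulin-like sum in pdx3-3 and 74.8% in pdx3-4, against 46.1% in wild type. Its log2 fold change was 3.12 ± 0.15 in pdx3-3 and 2.96 ± 0.15 in pdx3-4. Without CML12 the calmodulin-like sum was 370, 544 and 578 CPM in pdx3-3, 424, 396 and 351 CPM in pdx3-4, and 172, 183 and 147 CPM in wild type, still without overlap. CML24, the touch gene TCH2, had 112, 173 and 162 CPM in pdx3-3, 142, 126 and 122 CPM in pdx3-4, and 39.6, 42.5 and 38.3 CPM in wild type (log2 1.83 ± 0.14 in pdx3-3 and 1.64 ± 0.14 in pdx3-4). For CML12 13.1% of the 50-base windows, and for CML24 16.8%, also lie in exons of other loci, mostly on the opposite strand.

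The calmodulin-like genes with the largest fold changes were CML37, AT3G01830 and CML38, at 3.14 CPM or less in wild type. CML37, which acts in jasmonate responses to herbivores (AT5G42380, chromosome 5, 16942447 to 16943820), had 14.1, 27.0 and 29.9 CPM in pdx3-3, 6.05, 5.82 and 4.72 CPM in pdx3-4, and 0.566, 0.501 and 0.161 CPM in wild type. Its log2 fold change was 5.76 ± 0.38 in pdx3-3 and 3.66 ± 0.43 in pdx3-4, on 11, 11 and 3 counts in wild type. AT3G01830, an EF-hand gene with no symbol in the reference (chromosome 3, 296024 to 299263), had 5.91, 14.2 and 13.8 CPM in pdx3-3, 5.91, 4.90 and 4.58 CPM in pdx3-4, and 0.206, 0.228 and 0.0535 CPM in wild type. With 4, 5 and 1 counts in wild type, its log2 fold change of 5.99 ± 0.47 in pdx3-3 and 4.84 ± 0.51 in pdx3-4 rests on few reads, and 54.7% of its 50-base windows also lie in exons on the opposite strand. CML38, a calmodulin-like protein of hypoxia responses (AT1G76650, chromosome 1, 28766750 to 28768138), had 27.3, 73.0 and 88.1 CPM in pdx3-3, 43.5, 48.6 and 24.8 CPM in pdx3-4, and 3.14, 2.46 and 2.68 CPM in wild type. Its spread within each mutant was wide, yet no mutant library came near the wild type range (log2 4.45 ± 0.45 in pdx3-3 and 3.76 ± 0.45 in pdx3-4). CML39, which lies 883 bases from CML38 on the same strand, had 1 count in pdx3-4 library 1 and 0 in the other libraries.

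CML41, which helps to close plasmodesmata in immune responses, had 44.7, 74.2 and 76.7 CPM in pdx3-3, 51.5, 30 and 26.5 CPM in pdx3-4, and 10.6, 12.7 and 7.54 CPM in wild type (log2 2.6 ± 0.29 in pdx3-3 and 1.74 ± 0.29 in pdx3-4). CML11 had 2.95, 3.27 and 3.15 CPM in pdx3-3, 4.60, 3.51 and 4.91 CPM in pdx3-4, and 0.669, 0.820 and 0.910 CPM in wild type. It was the only tested calmodulin-like member whose pdx3-4 libraries all lay above its pdx3-3 libraries (log2 1.90 ± 0.21 in pdx3-3 and 2.38 ± 0.20 in pdx3-4). CML42, known from trichomes and herbivory, had 14.8, 13.9 and 18.9 CPM in pdx3-3, 15.9, 14.5 and 15 CPM in pdx3-4, and 8.18, 7.25 and 6.74 CPM in wild type. CML9, a calmodulin-like protein of abscisic acid and pathogen responses, had 148, 165 and 185 CPM in pdx3-3, 154, 162 and 149 CPM in pdx3-4, and 109, 116 and 90.9 CPM in wild type. These 2 genes had the smallest fold changes of the subfamily, at log2 1.05 ± 0.13 in pdx3-3 and 0.98 ± 0.12 in pdx3-4 for CML42 and 0.60 ± 0.11 in pdx3-3 and 0.50 ± 0.11 in pdx3-4 for CML9.

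The calcium pump ACA13 (AT3G22910, chromosome 3, 8116292 to 8119490) had 23.8, 41.4 and 32.0 CPM in pdx3-3, 26.6, 18.9 and 20.8 CPM in pdx3-4, and 2.68, 1.41 and 1.12 CPM in wild type. The mutants lay far above wild type, with log2 fold changes of 4.16 ± 0.29 in pdx3-3 and 3.61 ± 0.29 in pdx3-4. Its close relative ACA12 (AT3G63380) had 3.58, 6.24 and 3.00 CPM in pdx3-3, 2.91, 1.25 and 2.02 CPM in pdx3-4, and 1.85, 2.01 and 0.161 CPM in wild type. Wild type library 3 had 3 counts of ACA12 where the other wild type libraries had 36 and 44. ACA12 was called higher in pdx3-3 (log2 1.58 ± 0.55) and not in pdx3-4 (log2 0.53 ± 0.59), and the pdx3-3 call was lost in 9 of the other fits, among them those without pdx3-3 library 1 or 2, any pdx3-4 library or wild type library 1 (log2 1.2 to 1.85). Without wild type library 3 its log2 fold change was 1.07 in pdx3-3 and 0.02 in pdx3-4.

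**Figure D3:**
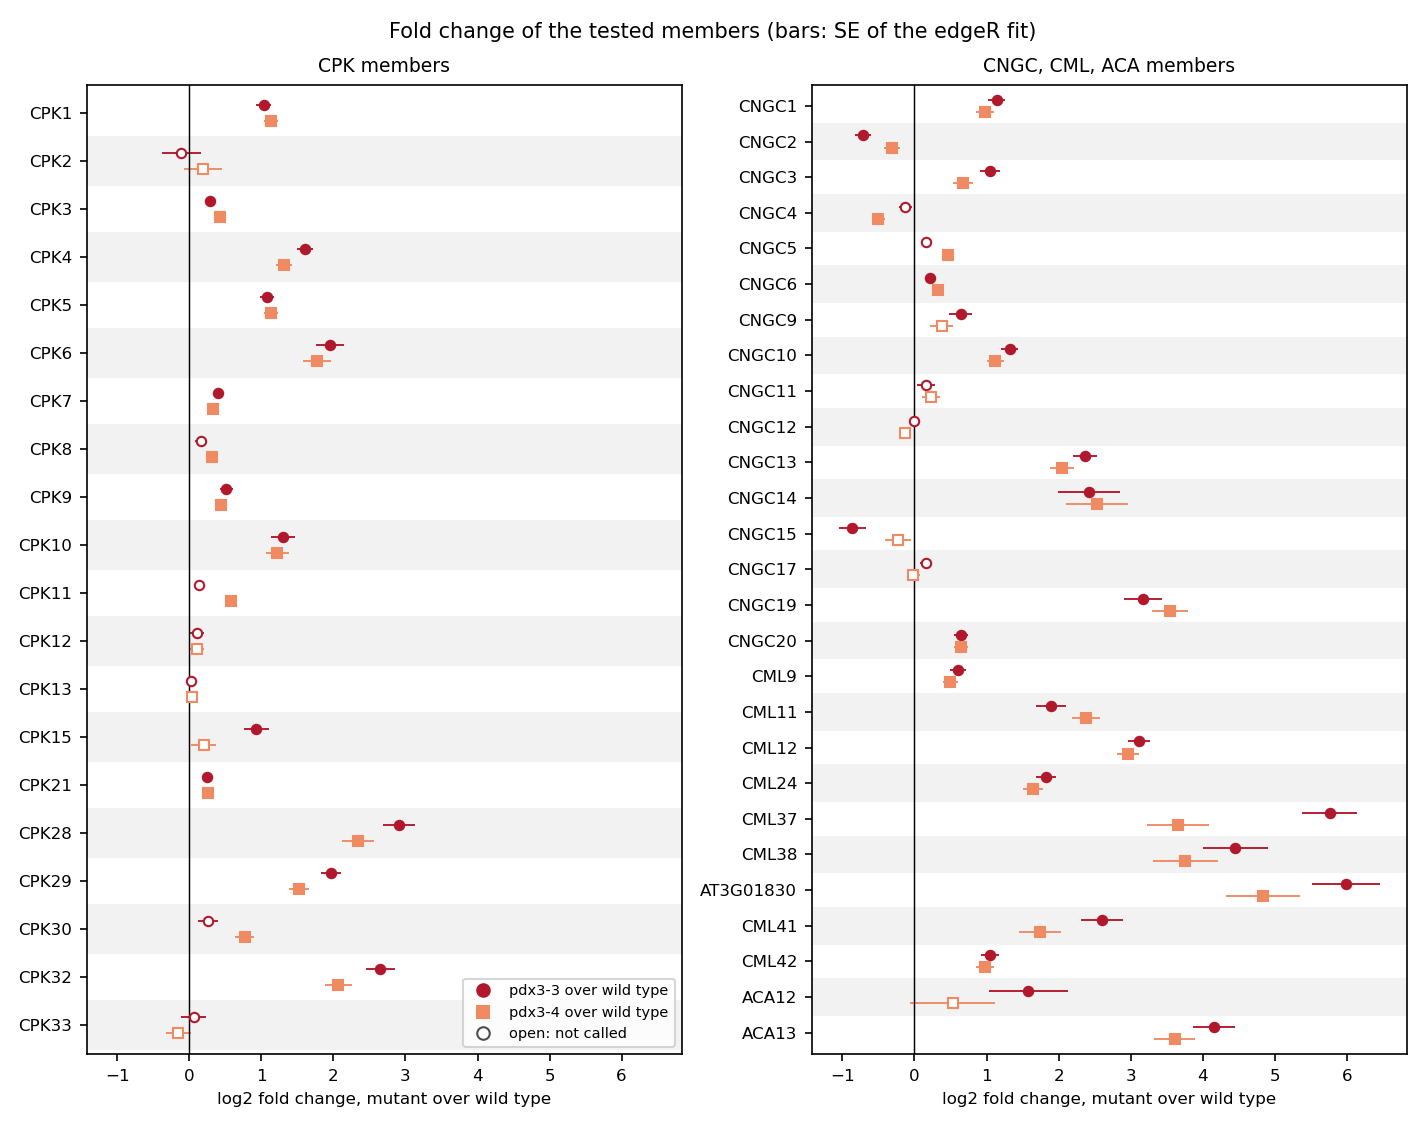
log2 fold change of the 47 tested members in pdx3-3 (circles) and pdx3-4 (squares) over wild type, from the edgeR fit, with its SE; filled symbols were called and open ones were not. The points furthest right are AT3G01830 (5.99) and CML37 (5.76) in pdx3-3, and the called points left of 0 belong to CNGC2, CNGC4 and CNGC15.

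Levels were compared between genes per kilobase of exon. In wild type the order began with CML9 (88.5 to 113 CPM per kb), CML12 (52.4 to 62.3), CNGC2 (48.0 to 57.9) and CPK3 (42.0 to 45.1), and the ranges of CML12 and CNGC2 overlapped. In pdx3-3 it began with CML12 (390 to 608 CPM per kb), CML9 (144 to 180) and CPK32 (76.3 to 144), the last of these with a range that met that of CML9 at one end. In pdx3-4 the order was CML12 (448 to 463 CPM per kb), CML9 (145 to 158) and CPK32 (70.6 to 87.5), with no overlap among them. The range of CML24, next in order in pdx3-4 (60.6 to 70.8), met that of CPK32. CNGC2 was at 30.5 to 34.2 CPM per kb in pdx3-3 and 38.1 to 47.0 in pdx3-4, which put it at place 11 in pdx3-3 and place 8 in pdx3-4, against place 3 in wild type. CPK28 stood at place 6 in pdx3-3 and place 7 in pdx3-4, against place 23 in wild type. Places rest on means, and ranges can overlap. In pdx3-3 that of CPK28 (42.4 to 81.7 CPM per kb) overlapped those of CML24 (55.8 to 86.3), CML41 (48.3 to 82.8) and CPK32. Of the 51 members, 28 had a wild type mean over 10 CPM, and 9 had one under 1 CPM, of which 5 were tested: CNGC14, CNGC19, CML11, CML37 and AT3G01830.

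Between the mutants, 4 members were called higher and 2 lower in pdx3-3 than in pdx3-4, where 6.16% of all tested genes were called, 3.32% higher and 2.84% lower. The members called higher were CML37 (log2 2.1 ± 0.25), AT3G01830 (1.15 ± 0.28), CPK15 (0.73 ± 0.16) and CNGC4 (0.37 ± 0.09), and those called lower were CPK11 (-0.44 ± 0.08) and CNGC5 (-0.31 ± 0.07). For AT3G01830 the libraries met, since pdx3-3 library 1 and pdx3-4 library 1 both had 5.91 CPM. The call of CPK11 held in all other fits but the one without pdx3-3 libraries 1 and 2, and that of CML37 in all of them, whereas CPK15, CNGC4, CNGC5 and AT3G01830 lost theirs in 5 to 7 fits, each of them when 1 of several mutant libraries was left out. Of the 30 members called higher in both mutants, 28 were not called between them, where 6.16% of all tested genes were called. The fold change was larger in pdx3-3 for 21 of the 30, a share that was not computed for all genes. Nothing is read from either count. In pdx3-3, library 1 was the lowest of the 3 libraries in 30 of the 33 members called higher (90.9%), as it was in 68.9% of the 3562 genes called higher. It is also the shallowest library and the one with the highest chloroplast share, and the part of these in its levels was not tested. When it was left out, 9 members were called higher and 1 lower in pdx3-3 than in pdx3-4, where 5.01% of all tested genes were called. CPK28 and CPK32 (log2 0.81 each), CNGC13 (0.49), CML24 (0.36), CML38 (1.05) and CML41 (1.07) were called there and not with all libraries. Without pdx3-3 libraries 1 and 2, which had the most chloroplast counts, 29 members were called higher and 2 lower in pdx3-3 against wild type and 20.8% of all tested genes were called, in a fit where the lone remaining library is assumed to vary like the other groups.

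Calcium genes outside the list were gathered as whole families by name, again with earlier results known, and 83 of 134 had enough counts. In pdx3-3 43 were called higher and 9 lower, where 19% of all tested genes were called higher and 17.5% lower. In pdx3-4 44 were called higher and 8 lower, where 20.9% of all tested genes were called higher and 18.4% lower. Their median log2 fold change was 0.32 in pdx3-3 and 0.41 in pdx3-4. None of the 4 remaining CPK genes that were tested was called in either mutant, with adjusted p from edgeR of 0.142 or more, and the 4 remaining CNGC genes had too few counts. In contrast, 14 of 23 remaining calmodulin-like genes were called higher and 1 lower in each mutant. The largest of these fold changes were at AT3G29000 (log2 5.15 ± 0.49 in pdx3-3 and 2.83 ± 0.55 in pdx3-4, with adjusted p = 1.55e-05 for pdx3-3 and 0.00222 for pdx3-4) and AT5G39670 (log2 4.13 ± 0.29 in pdx3-3 and 2.34 ± 0.30 in pdx3-4, with adjusted p = 1.73e-06 for pdx3-3 and 0.000128 for pdx3-4). Both genes were picked after their values were seen, so their p-values are given as a description only. AT3G29000 had 14, 30 and 0 counts in wild type and had enough counts to be tested only through its mutant libraries. Without wild type library 2 the log2 fold changes were 6.15 in pdx3-3 and 3.83 in pdx3-4 for AT3G29000, and 4.78 in pdx3-3 and 2.99 in pdx3-4 for AT5G39670. Both genes were also higher in pdx3-3 than in pdx3-4, with an adjusted p from edgeR of 0.00507 for AT3G29000, against 0.126 with DESeq2, and of 0.00198 for AT5G39670. Beside the named pumps, ACA1, a pump of internal membranes, had 311, 573 and 543 CPM in pdx3-3, 291, 289 and 245 CPM in pdx3-4, and 57.2, 54.7 and 49.7 CPM in wild type (log2 3.08 ± 0.20 in pdx3-3 and 2.3 ± 0.19 in pdx3-4, with edgeR adjusted p = 1.14e-06 for pdx3-3 and 7.94e-06 for pdx3-4). ACA10 and ACA11 also rose in both mutants, with log2 1.43 ± 0.12 in pdx3-3 and 1.36 ± 0.12 in pdx3-4 for ACA10 (adjusted p = 7.89e-06 in pdx3-3 and 1.21e-05 in pdx3-4).

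The calmodulin, CAMTA, CBP60 and RBOH genes that were called all rose, whereas glutamate receptor-like channels moved in both directions. Of the calmodulin genes, CAM1, CAM2, CAM3 and CAM4 rose in both mutants (edgeR adjusted p of 0.0426 or less) and CAM5, CAM6 and CAM7 were not called, with the largest change at CAM2 (log2 0.95 ± 0.09 in pdx3-3 and 1.21 ± 0.09 in pdx3-4, with edgeR adjusted p = 1.59e-05 for pdx3-3 and 4.19e-06 for pdx3-4). The call of CAM4 was lost in 10 of the other fits in pdx3-3 and in 4 in pdx3-4, and that of CAM3 in 4 in pdx3-3. CAM2 lies 482 bases downstream of CML12 on the same strand, and CAM1 lies 4846 bases from CML24. On the other side of CML12, 37 bases upstream on the same strand, the calmodulin-like gene AT2G41090 was not called in either mutant. Its log2 fold change was -0.02 in pdx3-3 and -0.09 in pdx3-4. Among the CAMTA factors, CAMTA3, a repressor of immune genes, rose (log2 1.33 ± 0.13 in pdx3-3 and 1.35 ± 0.13 in pdx3-4, with edgeR adjusted p = 1.87e-05 for pdx3-3 and 1.77e-05 for pdx3-4). SARD1 and CBP60G of the CBP60 family, activators of salicylic acid synthesis, also rose. SARD1 had 105, 172 and 133 CPM in pdx3-3, 60.5, 51 and 52.6 CPM in pdx3-4, and 5.92, 7.79 and 5.56 CPM in wild type (edgeR adjusted p = 2.94e-07 in pdx3-3 and 1.86e-06 in pdx3-4). RBOHD, the oxidase that CPK5 phosphorylates, had 140, 210 and 218 CPM in pdx3-3, 118, 129 and 110 CPM in pdx3-4, and 44.3, 51.5 and 49.9 CPM in wild type (log2 1.91 ± 0.15 in pdx3-3 and 1.24 ± 0.14 in pdx3-4, with edgeR adjusted p = 3.42e-06 for pdx3-3 and 6.58e-05 for pdx3-4). Glutamate receptor-like channels went both ways. GLR2.8 rose (log2 4.36 ± 0.37 in pdx3-3 and 3.34 ± 0.39 in pdx3-4, with edgeR adjusted p = 7.16e-06 for pdx3-3 and 6.64e-05 for pdx3-4), and GLR1.1, GLR1.4 and GLR2.7 did too (adjusted p of 0.00277 or less). GLR3.1, GLR3.2, GLR3.4, GLR3.5 and GLR3.6, several of which carry wound signals between leaves, fell in both mutants (edgeR adjusted p of 0.0282 or less), though the call of GLR3.1 was lost in 6 of the other fits in pdx3-3 and 2 in pdx3-4. GLR3.6 had 3.83, 3.12 and 3.86 CPM in pdx3-3, 4.41, 5 and 4.19 CPM in pdx3-4, and 7.62, 7.79 and 8.99 CPM in wild type (edgeR adjusted p = 2.75e-05 in pdx3-3 and 0.000201 in pdx3-4). GLR3.3 and GLR3.7 were not called in either mutant.

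Of the remaining families, 2 of 6 tested CBL calcium sensors were called higher and 2 lower in each mutant. Of all tested genes, 19% were called higher and 17.5% lower in pdx3-3, and 20.9% higher and 18.4% lower in pdx3-4. CBL4 rose (log2 0.94 ± 0.22 in pdx3-3 and 0.96 ± 0.21 in pdx3-4, with edgeR adjusted p = 0.00614 for pdx3-3 and 0.00459 for pdx3-4) and CBL10 fell (log2 -0.48 ± 0.08 in pdx3-3 and -0.30 ± 0.08 in pdx3-4, with edgeR adjusted p = 0.000665 for pdx3-3 and 0.00959 for pdx3-4). CBL1 also rose (log2 0.59 ± 0.18 in pdx3-3 and 0.55 ± 0.18 in pdx3-4, with edgeR adjusted p = 0.024 for pdx3-3 and 0.0299 for pdx3-4), but its call was lost in 4 of the other fits in pdx3-3, among them those without pdx3-3 library 2 or 3 or wild type library 3 (log2 0.47 to 0.53), and in 2 in pdx3-4, those without pdx3-4 library 2 or wild type library 3 (log2 0.36 and 0.43). Of 8 tested ECA and CAX calcium transporters, 4 were called higher and 1 lower in pdx3-3, and 3 higher and 0 lower in pdx3-4. That is 62.5% of them in pdx3-3 and 37.5% in pdx3-4, where 36.4% and 39.2% of all tested genes were called. The pdx3-4 count is thus near the share of all tested genes. CAX3, a vacuolar exchanger, had 44.3, 88.6 and 83.8 CPM in pdx3-3, 114, 49.4 and 58.8 CPM in pdx3-4, and 32.9, 21.2 and 12.7 CPM in wild type. Every mutant library lay above every wild type library, with log2 1.64 ± 0.39 in pdx3-3 and 1.67 ± 0.39 in pdx3-4 (edgeR adjusted p = 0.00781 for pdx3-3 and 0.00648 for pdx3-4). CAX2 rose in both mutants (log2 0.62 ± 0.12 in pdx3-3 and 0.48 ± 0.12 in pdx3-4, with edgeR adjusted p = 0.00228 for pdx3-3 and 0.00923 for pdx3-4) and ECA4 in pdx3-3 (log2 0.32 ± 0.07, edgeR adjusted p = 0.00376). Other genes with the smallest adjusted p of their family rose in both mutants: AT3G47480, AT2G41410, AT3G25600, AT4G31000, CAMTA2, AT1G67310 and RBOHF, by log2 0.50 (RBOHF) to 3.03 (AT3G47480) in pdx3-3 and 0.51 (RBOHF) to 2.15 (AT4G31000) in pdx3-4, with edgeR adjusted p of 0.00332 or less.

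**Figure D4:**
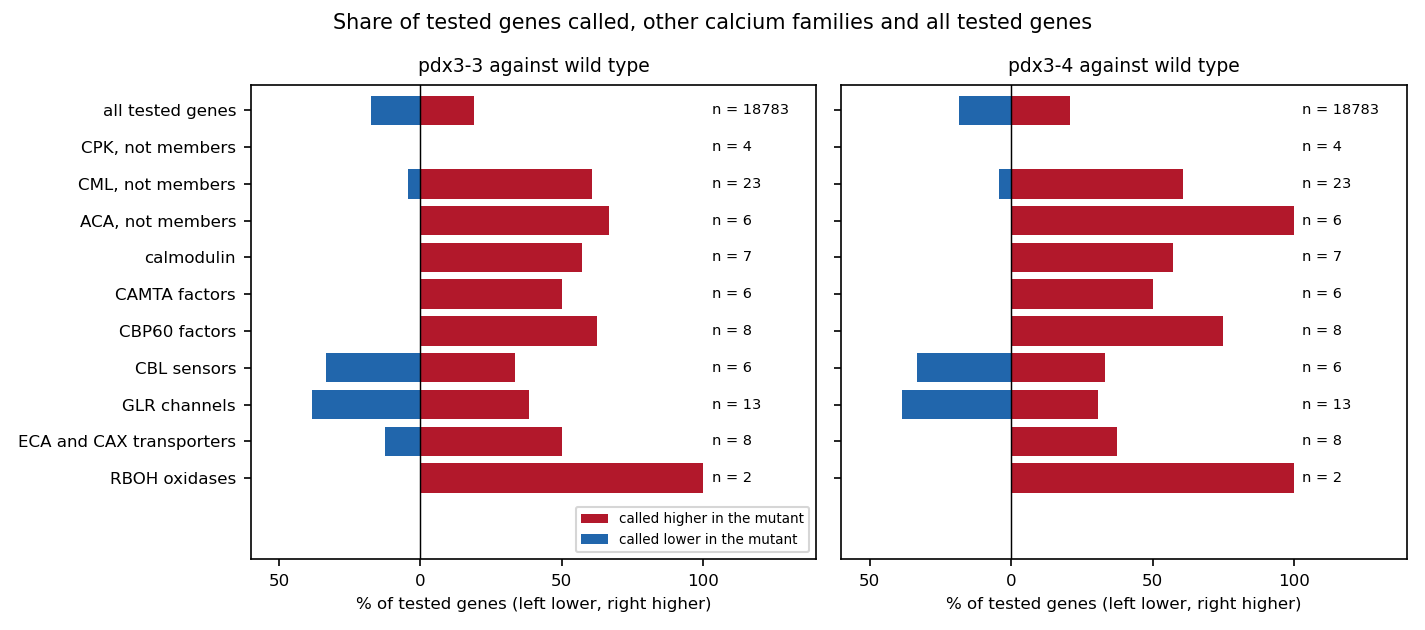
Share of the tested genes of each other calcium family that were called higher (right) or lower (left) in pdx3-3 and in pdx3-4 against wild type, with the number tested; the top bar gives all 18783 tested genes. The 4 remaining CPK genes show no bar, and the GLR channels have bars on both sides, with 5 of 13 lower in each mutant.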

How the data were processed

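Stranded polyA libraries (TruSeq) were made from RNA of ground whole rosettes, per the labels' protocols. The authors deposited raw counts per locus in 1 file for each library. The submitters' processing notes name FastQC, TopHat2 (version 2) and the build TAIR10. How reads were counted, and with which strand setting, is not given in the sources used here. Values of near-identical, overlapping and antisense loci are therefore uncertain (15 of the 51 members overlap exons on the other strand).

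Libraries were grouped by labelled genotype. Those of the same genotype differed beyond counting noise (chi-square per degree of freedom 5.53 to 26.7), and nothing says that they came from separate plants, so p-values measure the spread between these libraries. CPM is a count divided by the library total. Fold changes come from edgeR 4.0.16 (R 4.3.3, limma 3.58.1) with TMM factors and the filterByExpr filter (18783 of 33602 loci kept), in 1 quasi-likelihood fit of all 9 libraries with genotype only. P-values were adjusted over all tested genes by Benjamini-Hochberg (threshold 0.05), and the SE is the size of the log2 value divided by the square root of F. Scripts were tested on simulated data, and DESeq2 1.42.0 was an alternative.

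The members and all lists were chosen with earlier results of these data known. Values per library were given by rule for the tested members with the largest mean fold change and the highest level per kb of each subfamily. Of the other families, up to 3 genes with the smallest adjusted p were named, with values per library for some of them. Other members, and AT3G29000, AT5G39670, CAM4 and further GLR channels, were added after their values were seen. Names, coordinates and upstream sequences came from RefSeq TAIR10.1 by locus (50 of 51 members and 88 of 134 other genes have the symbol used), since the files carry no coordinates. The limit from a count of 0 (3 counts) covers counting error only.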

Additional observations from a re-analysis of the deposited data

How the results depend on the processing

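The counts of members called against wild type moved little: 31 to 37 in pdx3-3 (35 as reported) and 35 to 37 in pdx3-4 (36 as reported) over median-of-ratios factors, library totals alone, no filter, DESeq2, only the 2 groups compared, no organellar loci, a replicate block, each library left out, and pdx3-3 without libraries 1 and 2, the last chosen after seeing the data. Leaving out 1 library gave 33 to 35 members in pdx3-3 and 35 to 37 in pdx3-4, and 45 to 53 (pdx3-3) and 46 to 51 (pdx3-4) of the other calcium genes, where 52 were reported in each. In those fits 27.7% to 36% of all tested genes were called in pdx3-3 and 30.7% to 39.4% in pdx3-4, against 36.4% and 39.2% as reported. Over the other settings, except the one without pdx3-3 libraries 1 and 2, it was 28.2% to 36.4% in pdx3-3 and 29.8% to 39.5% in pdx3-4, lowest with no filter. Between the mutants the count of 6 members depended more on the fit: it was 10 with DESeq2 and 12 with only the 2 groups compared, where 7.17% and 8.69% of all tested genes were called, against 6.16% as reported. Leaving out 1 library gave 2 to 10 members (2 without pdx3-3 replicate 2 or pdx3-4 replicate 3, 3 without pdx3-3 replicate 3, 10 without pdx3-3 replicate 1 or wild type replicate 3) and 6 to 16 other calcium genes, against 11. Of all tested genes, 2.06% were called without pdx3-4 replicate 3, 2.74% without pdx3-3 replicate 2, 4.56% without pdx3-3 replicate 3, 5.01% without pdx3-3 replicate 1 and 9.56% without wild type replicate 3. The cause was not tested. CPK27, not a member, changed sign in pdx3-3, at log2 -0.09 without wild type replicate 3 against 0.06 as reported, and reached 0.16 without wild type replicate 2. ACA12 lost its call in pdx3-3 and CNGC2 its call in pdx3-4 in 9 fits each, and CNGC6 its call in pdx3-3 in 6.

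Genotypes share replicate numbers, but same-numbered libraries did not deviate together: the correlation of their deviations was -0.15 to 0.343, over 0.1 in 2 of 9 pairs, so the numbers were not taken as pairs. With a replicate block 35 members were called in pdx3-3 and 35 in pdx3-4 against wild type and 5 between the mutants, and 51, 51 and 10 of the other calcium genes. Of all tested genes, 34.4%, 36.8% and 5.8% were called in these 3 comparisons. The SE of the fold changes against wild type was highest for ACA12 (0.55 in pdx3-3 and 0.59 in pdx3-4), AT3G01830 (0.47 in pdx3-3 and 0.51 in pdx3-4), CML38 (0.45 in both), CNGC14 (0.43 in both) and CML37 (0.38 in pdx3-3 and 0.43 in pdx3-4).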
